A study of Mus musculus with 2 samples.

Results

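The collagen chain genes were taken as the array rows whose platform annotation gave exactly 1 gene symbol made of Col, a number, the letter a and a number. There were 46 such rows for 44 genes, among 19863 genes named by a single symbol on the array, and 1 row per gene was kept, the one with the higher mean. Of the 44 genes, 11 code for fibrillar collagens, 8 for basement membrane collagens and 25 for other collagens. Expression was measured in 2 cultures of bone marrow derived macrophages from mice aged 8 weeks, 1 labelled beta-catenin deficient and 1 labelled control, each on 1 Affymetrix 1.0 ST array. Both cultures grew in conditioned medium of L929, a line of mouse fibroblasts whose secreted colony-stimulating factor supports macrophages. The sources used here do not give the strain, the deleted part of the beta-catenin gene, the Cre driver or how many animals went into a culture.

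Collagens are proteins of the extracellular matrix built from chains with a repeated glycine that wind into a triple helix. Fibrillar collagens assemble into the tensile fibres of skin, bone and tendon, type IV collagen forms the mesh of basement membranes, and type VI collagen makes beaded microfilaments around cells. Fibroblasts, osteoblasts and chondrocytes are the main makers of fibrillar collagen, while macrophages are better known for taking up and degrading it. Human macrophages have been described to secrete type VI collagen.

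The values are log2 intensities after RMA, a method that corrects background, normalizes arrays to each other and summarises the probes of a transcript. A difference is the array labelled deficient minus the control array, so 1 on this scale is 2-fold. Values ran from 2.12 to 13.98 in the array labelled deficient and from 2.70 to 14.11 in the control array, with medians of 7.24 and 7.32. With 1 array per group the spread between cultures is unknown, no test was possible, and higher or lower describes these 2 arrays. The number of arrays limits the precision. Ctnnb1, the gene of beta-catenin, had 11.44 in the array labelled deficient and 11.29 in the control array, so its level was not lower and the label rests on the submitters' word. Axin2, a feedback inhibitor switched on by beta-catenin, had 5.97 in the array labelled deficient and 7.61 in the control array. Probes outside a deleted exon check nothing about the deletion. The macrophage markers Csf1r, Adgre1 and Cd68 were bright in both arrays, with 12.35, 12.23 and 12.82 in the array labelled deficient and 12.25, 12.23 and 12.71 in the control array.

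Part of the collagen genes were higher in the array labelled deficient: chains of types I, III, V, VI, VIII, X and XII. Of the 44 genes, 26 had their higher value at or above 7.28, a floor set at the median over both arrays. At least 2-fold higher were 7 of the 26 (Col1a1, Col1a2, Col6a1, Col6a2, Col6a3, Col10a1 and Col12a1), where 2.96% of the 10657 genes at the same floor were. At least 2-fold lower were 0 of the 26, against 1.59% of those genes. At the smaller size of 1.5-fold, 10 of the 26 were higher, with Col3a1, Col5a2 and Col8a1 added, and 0 were lower, while 7.54% of all genes at the floor were higher and 8.81% lower. The median difference was 0.27 over the 26 collagen genes and -0.08 over all genes at the floor. The floor favours genes that are bright in either array, so the 26 do not stand for the 44. Of the 26, Col10a1, Col11a1, Col13a1 and Col15a1 reached it only in the array labelled deficient. With the floor on the mean of both arrays 24 were left, again with 7 and 10 higher and 0 lower. Of the 10175 genes at that floor, 271 were higher and 144 lower at 2-fold, and 715 higher and 851 lower at 1.5-fold. Over the 44 the median was 0.07, against -0.15 over all 19863 genes. Without the floor the same counts, 7 and 10 higher and 0 lower, came from 44 genes, where all 19863 genes gave 1.77% higher and 2.34% lower at 2-fold, and 4.98% higher and 13.0% lower at 1.5-fold.

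**Figure D1:**
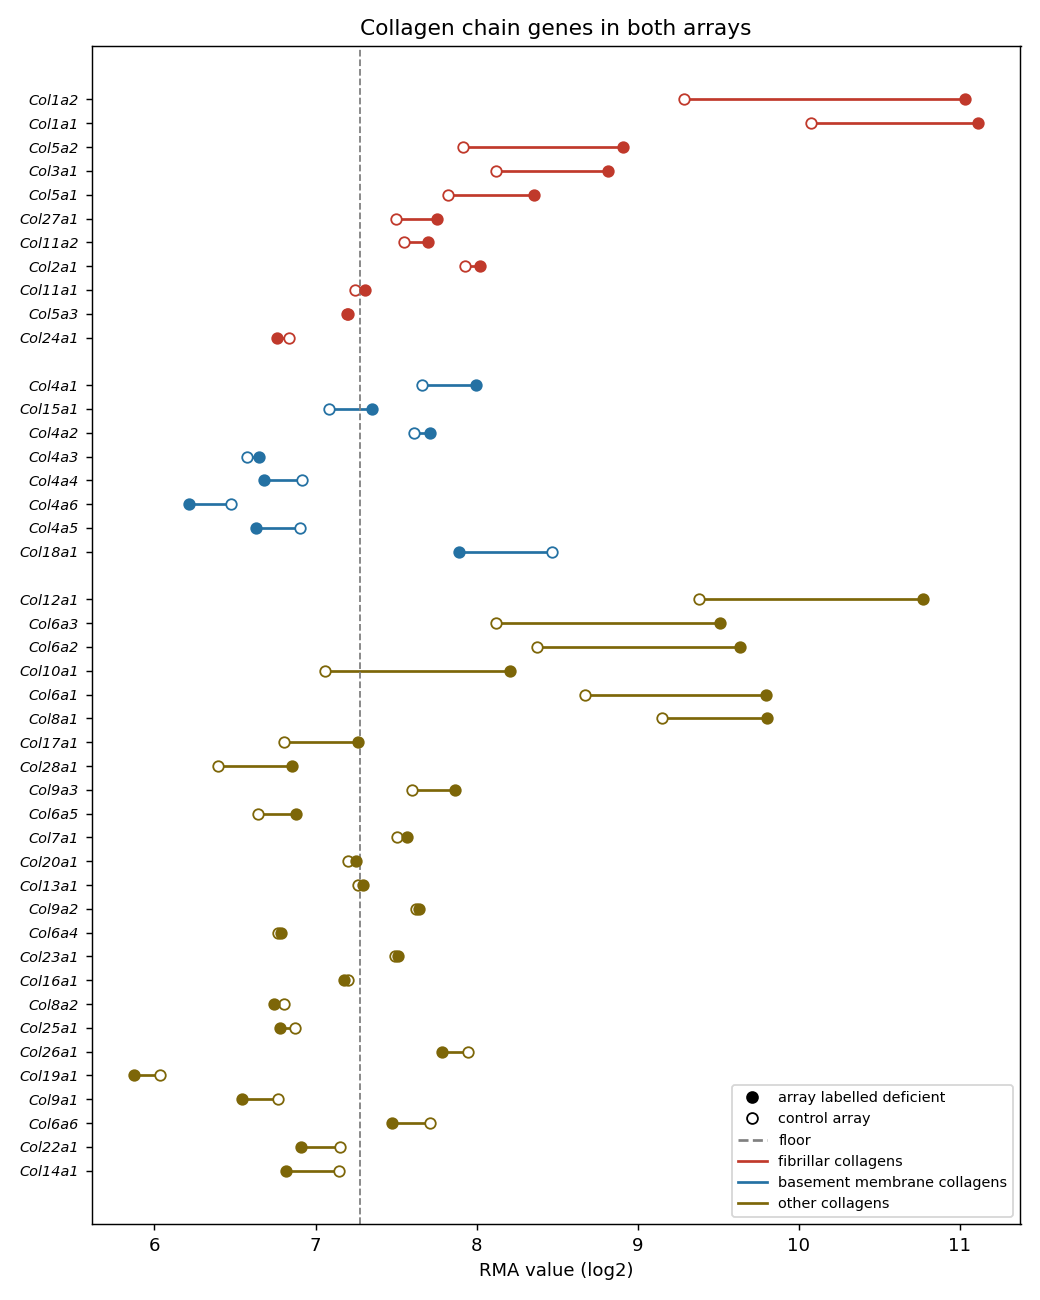
RMA value (log2, x axis) of each of the 44 collagen chain genes, a row per gene, in the array labelled deficient (filled circle) and in the control array (open circle), with the floor of 7.28 as a dashed line. The long lines running right belong to Col1a2, Col12a1, Col6a3, Col6a2, Col10a1, Col6a1 and Col1a1, each up by 2-fold or more, and Col18a1 is the longest line running left.

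RefSeq promoter windows were found for 35 of the 44 genes, and the 250 bases before the start are printed for the 5 genes with a window among the 7 that were at least 2-fold higher. Col18a1 is added because its difference was the lowest of the 44. Col6a2 and Col18a1 have 2 windows each, for different starts, and the one of the outermost start is printed. All are from the build GRCm38.p6 and run 5′ to 3′. Capitals mark 4 short motifs searched on both strands: the CCAAT box, the GC box GGGCGG, the TATA box TATAAA and CTTTGA. The last is 1 form of the core of sites for TCF/LEF, the DNA-binding partners of beta-catenin. Other forms of this core were not searched, and TCF/LEF core below means CTTTGA. No motif contains another, and GC boxes can overlap one another.
Col1a2, chr6:4505368-4505617, plus strand: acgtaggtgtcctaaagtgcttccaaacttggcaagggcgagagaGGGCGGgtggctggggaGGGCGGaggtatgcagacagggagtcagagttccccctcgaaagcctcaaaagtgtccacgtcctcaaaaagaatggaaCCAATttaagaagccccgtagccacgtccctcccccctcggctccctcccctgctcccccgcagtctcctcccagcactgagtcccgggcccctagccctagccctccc
Col6a1, chr10:76726045-76726294, minus strand: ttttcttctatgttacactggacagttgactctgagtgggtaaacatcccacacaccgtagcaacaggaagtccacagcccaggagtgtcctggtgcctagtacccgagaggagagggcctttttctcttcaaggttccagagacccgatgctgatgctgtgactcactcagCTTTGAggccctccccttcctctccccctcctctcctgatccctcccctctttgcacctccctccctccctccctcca
Col6a2, chr10:76623631-76623880, minus strand: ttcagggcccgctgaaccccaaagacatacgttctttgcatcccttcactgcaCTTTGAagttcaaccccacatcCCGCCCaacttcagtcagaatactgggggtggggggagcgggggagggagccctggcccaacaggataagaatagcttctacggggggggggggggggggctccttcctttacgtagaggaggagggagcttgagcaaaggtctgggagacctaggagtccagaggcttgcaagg
Col6a3, chr1:90843972-90844221, minus strand: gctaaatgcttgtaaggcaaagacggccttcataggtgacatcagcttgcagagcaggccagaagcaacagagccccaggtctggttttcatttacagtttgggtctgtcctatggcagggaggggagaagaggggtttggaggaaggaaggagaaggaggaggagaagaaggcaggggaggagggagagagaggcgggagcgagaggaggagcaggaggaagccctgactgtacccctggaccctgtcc
Col10a1, chr10:34389731-34389980, plus strand: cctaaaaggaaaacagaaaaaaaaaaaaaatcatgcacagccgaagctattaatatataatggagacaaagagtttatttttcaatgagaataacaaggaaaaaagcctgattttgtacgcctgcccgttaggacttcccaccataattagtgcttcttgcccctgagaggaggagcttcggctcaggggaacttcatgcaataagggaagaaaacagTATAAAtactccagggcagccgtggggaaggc
Col18a1, chr10:77166531-77166780, minus strand: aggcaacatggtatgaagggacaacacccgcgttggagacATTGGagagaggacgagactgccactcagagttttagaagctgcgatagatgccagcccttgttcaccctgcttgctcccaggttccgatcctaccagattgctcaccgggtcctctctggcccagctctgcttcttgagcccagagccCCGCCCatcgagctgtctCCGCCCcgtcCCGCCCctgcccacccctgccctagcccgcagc

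The printed windows do not share a common set of these letters. The Col1a2 window holds 1 CCAAT box and 2 GC boxes, Col6a1 holds 1 TCF/LEF core, Col6a2 holds 1 TCF/LEF core and 1 GC box, and Col10a1 holds 1 TATA box. No capital stands in the Col6a3 window, and Col18a1 holds 1 CCAAT box and 3 GC boxes. The second window of Col6a2 holds 3 GC boxes and 0 TCF/LEF cores, and that of Col18a1 holds 0 of the 4 motifs. A TCF/LEF core lay in 9 of 38 windows of collagen genes (23.7%) and in 13.8% of all 32851 windows. Among the 8 windows of genes at least 1.5-fold higher it lay in 2, and among the 30 windows of the other members in 7. The 8 windows cover 7 of the 10 higher genes, with 2 overlapping windows for Col6a2 and none for Col1a1, Col5a2 and Col12a1. GC boxes lay in 57.9% of the collagen windows and in 32.7% of all windows, CCAAT boxes in 34.2% and 33.9%, and TATA boxes in 13.2% and 12.4%. The collagen windows were richer in G and C, with a median of 59.0% against 52.4% over all windows, and the part of this in the share with GC boxes was not tested. These matches describe letters, not binding.

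Fibrillar collagens ranged from level to more than 3-fold higher. Of the 11, 9 reached the floor, and the median difference of the 9 was 0.53, against -0.08 over all genes at the floor. Of the 9, 2 were at least 2-fold and 4 at least 1.5-fold higher, where 2.96% and 7.54% of those genes were. At least 1.5-fold lower were 0 of the 9, which for so few members is near the 8.81% of those genes. Of the 9, Col11a1 reached the floor only in the array labelled deficient. With the floor on the mean of both arrays 8 were left, with a median of 0.61. Col1a2, the alpha 2 chain of type I collagen, had 11.04 in the array labelled deficient and 9.29 in the control array. Its difference of 1.75, a fold of 3.36, ranked 72 among 10657 genes and was the highest of the 44 collagen genes. Col1a1, the alpha 1 chain of the same molecule, had 11.12 in the array labelled deficient and 10.08 in the control array, a difference of 1.04. Both chains of type I collagen were higher, and the difference of Col1a2 exceeded that of Col1a1 by 0.71. Both values of both genes lay well above the floor.

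Types III and V join type I in mixed fibres, and Col3a1 and Col5a2 passed 1.5-fold among their chains. Col3a1, the single chain of type III collagen, had 8.82 in the array labelled deficient and 8.12 in the control array, a difference of 0.69. Col5a2 had 8.91 in the array labelled deficient and 7.92 in the control array, a difference of 0.99, just short of 2-fold. Col5a1, which with Col5a2 builds the main type V molecule that starts fibrils, had 8.36 in the array labelled deficient and 7.82 in the control array, a difference of 0.53 or 1.45-fold. Its partner Col5a3 had 7.20 in both arrays and stayed below the floor.

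The other fibrillar chains were nearly level. Col27a1, a collagen of developing cartilage, had 7.75 in the array labelled deficient and 7.50 in the control array. Col24a1 stayed below the floor, with 6.76 in the array labelled deficient and 6.84 in the control array. Among other chains typical of cartilage, a grouping made after their values were seen, Col2a1, Col9a1, Col9a2, Col9a3, Col11a1 and Col11a2 had differences from -0.22 for Col9a1 to 0.27 for Col9a3, while Col10a1, of hypertrophic cartilage, had 1.15. Col2a1, the fibril-forming chain of cartilage, had 8.02 in the array labelled deficient and 7.93 in the control array. Col11a1 and Col11a2, which nucleate those fibrils, had 7.31 and 7.70 in the array labelled deficient and 7.24 and 7.55 in the control array.

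Basement membrane collagens showed no member 1.5-fold apart in either direction. Over all genes at the floor 7.54% were higher and 8.81% lower, so for so few members this is not far from those shares. Of the 8, 4 reached the floor, and their median difference was 0.18. Of these, Col15a1 reached it only in the array labelled deficient. With the floor on the mean of both arrays 3 members were left, with a median of 0.10 and a mean of -0.05. Col4a1 and Col4a2, the chains of the type IV network found under most epithelia and endothelia, had 7.99 and 7.71 in the array labelled deficient and 7.66 and 7.61 in the control array. Their differences were 0.33 and 0.10. Col4a3, Col4a4, Col4a5 and Col4a6, chains of more restricted basement membranes such as those of the kidney glomerulus, stayed below the floor in both arrays, with differences of 0.07, -0.24, -0.27 and -0.26.

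The multiplexins, collagens of the basement membrane zone with interrupted helices, had differences of opposite sign, both smaller than 1.5-fold. Col15a1 had 7.35 in the array labelled deficient and 7.08 in the control array, a difference of 0.27. Col18a1, whose C-terminal fragment is endostatin, had 7.89 in the array labelled deficient and 8.47 in the control array. Its difference of -0.58, or 1.49-fold lower, stood just inside 1.5-fold. With all 8 members counted and no floor, the median of the class was -0.08, so its sign rests on the floor. The median of all genes was -0.15 without the floor and -0.08 at the floor, where the class had 0.18.

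**Figure D2:**
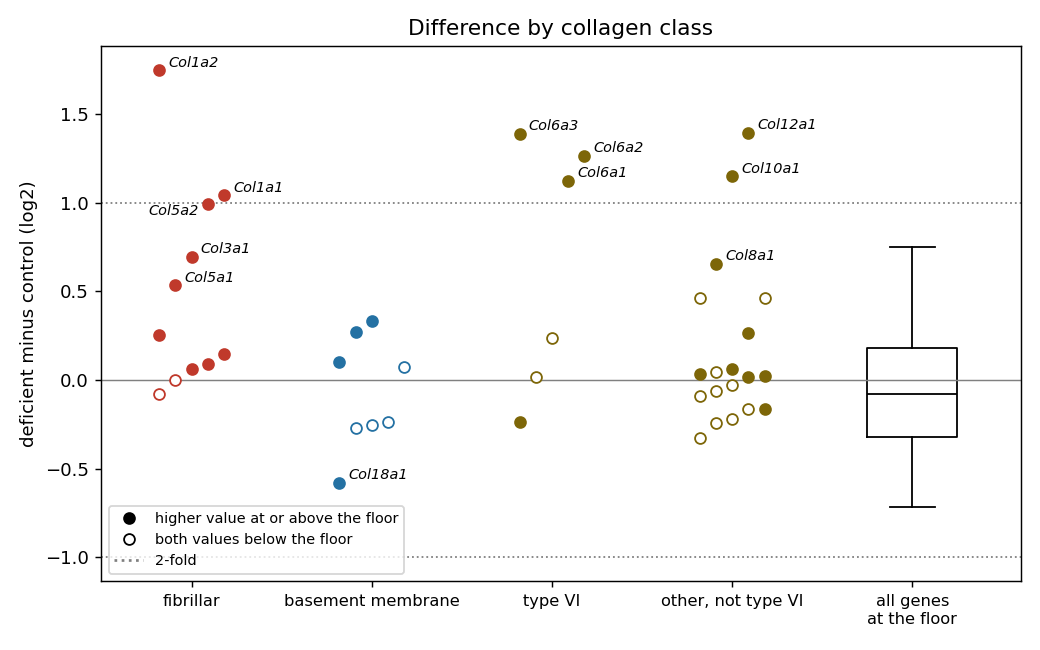
Difference (deficient minus control, log2, y axis) of each collagen gene by class, filled where the higher value reaches the floor and open where both values lie below it. The box on the right shows the 10657 genes at the floor, with the median, the quartiles and whiskers at the 5th and 95th percentiles, and dotted lines mark 2-fold. Fibrillar, type VI and some other collagens reach past the upper line, and the 8 basement membrane collagens lie between -0.58 and 0.33.

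Among the other collagens, type VI chains of the common heterotrimer were higher together. Col6a1 had 9.80 in the array labelled deficient and 8.67 in the control array, a difference of 1.12. Col6a2 had 9.64 in the array labelled deficient and 8.37 in the control array, a difference of 1.26. Col6a3, the large chain, had 9.51 in the array labelled deficient and 8.12 in the control array, a difference of 1.39. The 3 chains assemble into 1 molecule, and their differences lay within 0.26 of each other. The alternative chains, which can take the place of Col6a3, did not follow. Col6a4 and Col6a5 stayed below the floor with differences of 0.02 and 0.23, and Col6a6 had 7.47 in the array labelled deficient and 7.71 in the control array.

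Col12a1, a fibril-associated collagen that decorates type I fibres in tendon and ligament, had 10.77 in the array labelled deficient and 9.38 in the control array. Its difference of 1.39 was the second of the 44. The remaining 8 fibril-associated and related genes (Col9a1, Col9a2, Col9a3, Col14a1, Col16a1, Col19a1, Col20a1 and Col22a1) lay between -0.33 for Col14a1 and 0.27 for Col9a3. Col14a1, a close relative of Col12a1, had 6.82 in the array labelled deficient and 7.14 in the control array, below the floor in both.

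The short-chain network collagens were higher in part. Col10a1, the marker of hypertrophic cartilage, had 8.21 in the array labelled deficient and 7.06 in the control array, a difference of 1.15 with the control value below the floor. Col8a1, a collagen of vessel walls and of Descemet's membrane in the eye, had 9.80 in the array labelled deficient and 9.15 in the control array, a difference of 0.65. Its partner chain Col8a2 stayed below the floor, with 6.74 in the array labelled deficient and 6.81 in the control array. Col7a1, the anchoring fibril collagen of skin, had 7.57 in the array labelled deficient and 7.50 in the control array.

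Transmembrane collagens were level or dim. Col13a1 and Col23a1 had differences of 0.03 and 0.01 at the floor, and Col25a1 one of -0.09 below it. Col17a1, a hemidesmosome collagen of skin, had 7.27 in the array labelled deficient and 6.80 in the control array, and Col28a1 had 6.85 in the array labelled deficient and 6.39 in the control array. Both differences were 0.46 with all values under the floor. Col26a1 had 7.79 in the array labelled deficient and 7.95 in the control array. Of the 18 members below the floor, the highest differences were those of Col17a1, Col28a1 and Col6a5 (0.23), and the lowest those of Col14a1 (-0.33), Col4a5 (-0.27) and Col4a6 (-0.26). Just inside the floor were Col13a1 and Col11a1, with 7.30 and 7.31 as their higher values, and just outside it Col17a1 and Col20a1, with 7.27 and 7.25.

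For Col6a5 and Col6a6 the array held 2 rows each, and these disagreed in sign. The kept row of Col6a5 differed by 0.23 and the other by -0.44, while the kept row of Col6a6 differed by -0.24 and the other by 0.20. Col6a4, Col6a5 and Col6a6 are similar neighbouring genes, so their probes may share signal.

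Some collagen genes lie side by side on their chromosome. Col4a1 and Col4a2 on chromosome 8, Col4a3 and Col4a4 on chromosome 1 and Col4a5 and Col4a6 on chromosome X are known to face each other from shared promoters. Their paired differences were 0.33 and 0.10, 0.07 and -0.24, and -0.27 and -0.26. Neighbours Col3a1 and Col5a2 on chromosome 1 were both higher, at 0.69 and 0.99, as were Col6a1 and Col6a2 on chromosome 10, at 1.12 and 1.26. Neighbours Col9a1 and Col19a1 on chromosome 1 had -0.22 and -0.17.

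Brightness in this table need not mean abundance, because probes differ in how well they bind. Of the 11 members with a mean value of 8 or more, 9 were at least 1.5-fold higher, the exceptions being Col5a1 and Col18a1. Of the 33 with a mean below 8, 1 was, Col10a1. Across all genes, 6.97% of the 8062 with a mean of 8 or more were at least 1.5-fold higher, and 3.63% of the 11801 with a mean below 8. The median of all genes was below 0 in each brightness range, with -0.06 from 9 up, -0.09 from 7 to 8 and -0.35 below 6.

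**Figure D3:**
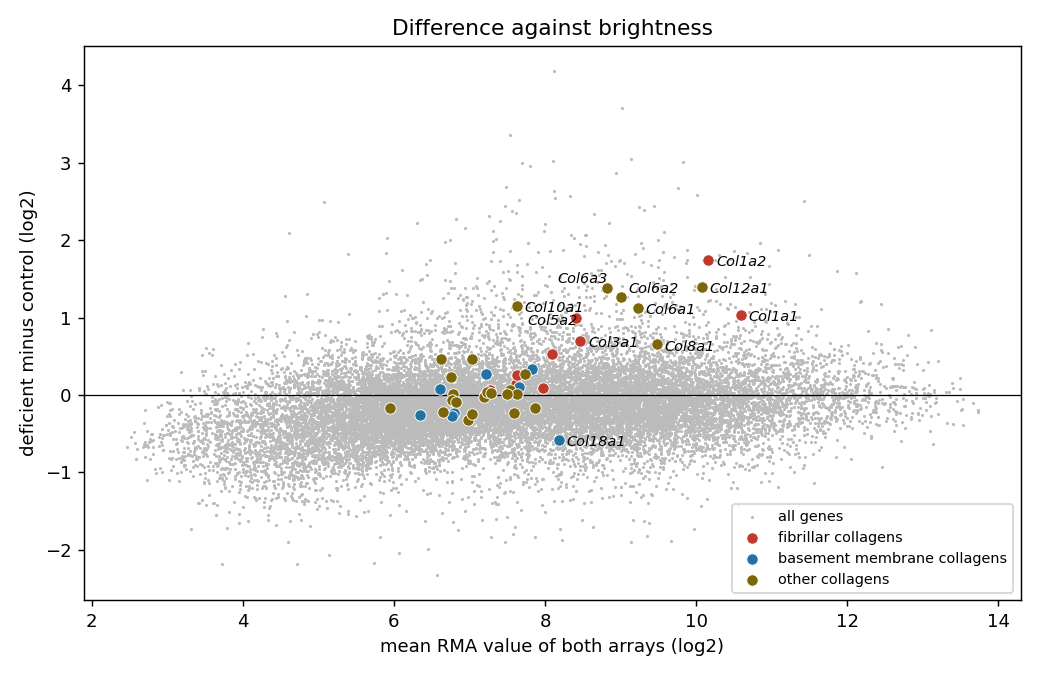
Difference (deficient minus control, log2, y axis) against the mean RMA value of both arrays (log2, x axis) for all 19863 genes in grey and for the collagen genes in colour by class. The collagen genes with a mean below 8 lie around 0 apart from Col10a1 at 1.15, and those above it run up to 1.75 for Col1a2, with Col18a1 at -0.58.

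Of the enzymes and chaperones that make collagen, as many were at least 1.5-fold higher as lay within 1.5-fold. Of 34 listed genes 31 were matched and 27 reached the floor, and these split into 13 higher by 1.5-fold or more, 13 closer than that and 1 lower. Over all genes at the floor 7.54% were higher and 8.81% lower. The list's median was 0.38, against -0.08 over all genes. Serpinh1, the collagen chaperone HSP47 of the endoplasmic reticulum, had 10.50 in the array labelled deficient and 8.50 in the control array, a difference of 2.00. Among hydroxylases, the prolyl 4-hydroxylase subunits P4ha1, P4ha2 and P4ha3, whose product steadies the triple helix, differed by 0.72, 0.88 and 0.70. Their shared partner P4hb, which also serves other proteins, was level at -0.09. Of the lysyl hydroxylases, which prepare cross-links, Plod2 differed by 0.64, Plod1 by -0.29 and Plod3 by -0.06. Prolyl 3-hydroxylase P3h2 differed by 1.12, with 8.12 in the array labelled deficient and a control value below the floor.

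Steps outside the cell gave both large and small differences. Pcolce, which speeds the removal of the C-propeptide, had 10.60 in the array labelled deficient and 8.81 in the control array, a difference of 1.79. Bmp1, the proteinase that removes it, differed by 1.05. The cross-linking enzyme Lox had 11.79 in the array labelled deficient and 10.12 in the control array, a difference of 1.67, and its relatives Loxl3 and Loxl1 differed by 1.59 and 0.76. The lowest of the list were Adamts3, an N-propeptidase, at -0.76, Tram2, which aids type I collagen synthesis at the endoplasmic reticulum, at -0.54, and Plod1. Pcolce2 and Adamts14 differed by 0.0057 and 0.05, and below the floor Loxl4, Tll1 and Tll2 differed by 0.08, -0.33 and -0.34.

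Of 12 listed collagen receptors, 11 were matched and 9 reached the floor, with a median of 0.10, 3 genes at least 1.5-fold higher and 0 lower, beside 7.54% and 8.81% over all genes at the floor. Highest were Ddr2, a receptor kinase for fibrillar collagen (1.03), Mrc2, an uptake receptor for cleaved collagen (0.86), and Itga1, the alpha 1 integrin chain (0.71). Lowest were Lair1, an inhibitory collagen receptor of leukocytes (-0.52), Adgrg1, a receptor for type III collagen (-0.40), and Itgb1, the shared beta 1 integrin chain (-0.22). Lair1 had 10.07 in the array labelled deficient and 10.59 in the control array. Itga1 had 7.86 in the array labelled deficient and a control value of 7.15, below the floor. With the floor on the mean of both arrays the counts, 9 receptors and 3 of them higher, were the same.

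Of 19 listed proteases that cut collagen and their inhibitors, 18 were matched and 12 reached the floor, with a median of 0.87, 8 genes at least 1.5-fold higher and 0 lower, beside 7.54% and 8.81% and a median of -0.08 over all genes at the floor. The collagenases Mmp13 and Mmp8 differed by 2.58 and 1.44 and the gelatinase Mmp9 by 1.07. Mmp8 and Mmp9 are also stored in neutrophil granules. The inhibitor Timp1 differed by 1.01, and the lysosomal collagen-cutting cathepsin Ctsk by 0.91. Lowest of the 12 were Timp2 (0.07), Reck (0.12) and Ctsb (0.16). Over the 18 matched genes without the floor, the median was 0.73, against -0.15 over all genes. Of the 18, 10 were at least 1.5-fold higher and 2 lower, where 4.98% and 13.0% of all genes were. The 2 were Mmp1a (-1.03) and Mmp1b (-0.63), both below the floor in both arrays.

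**Figure D4:**
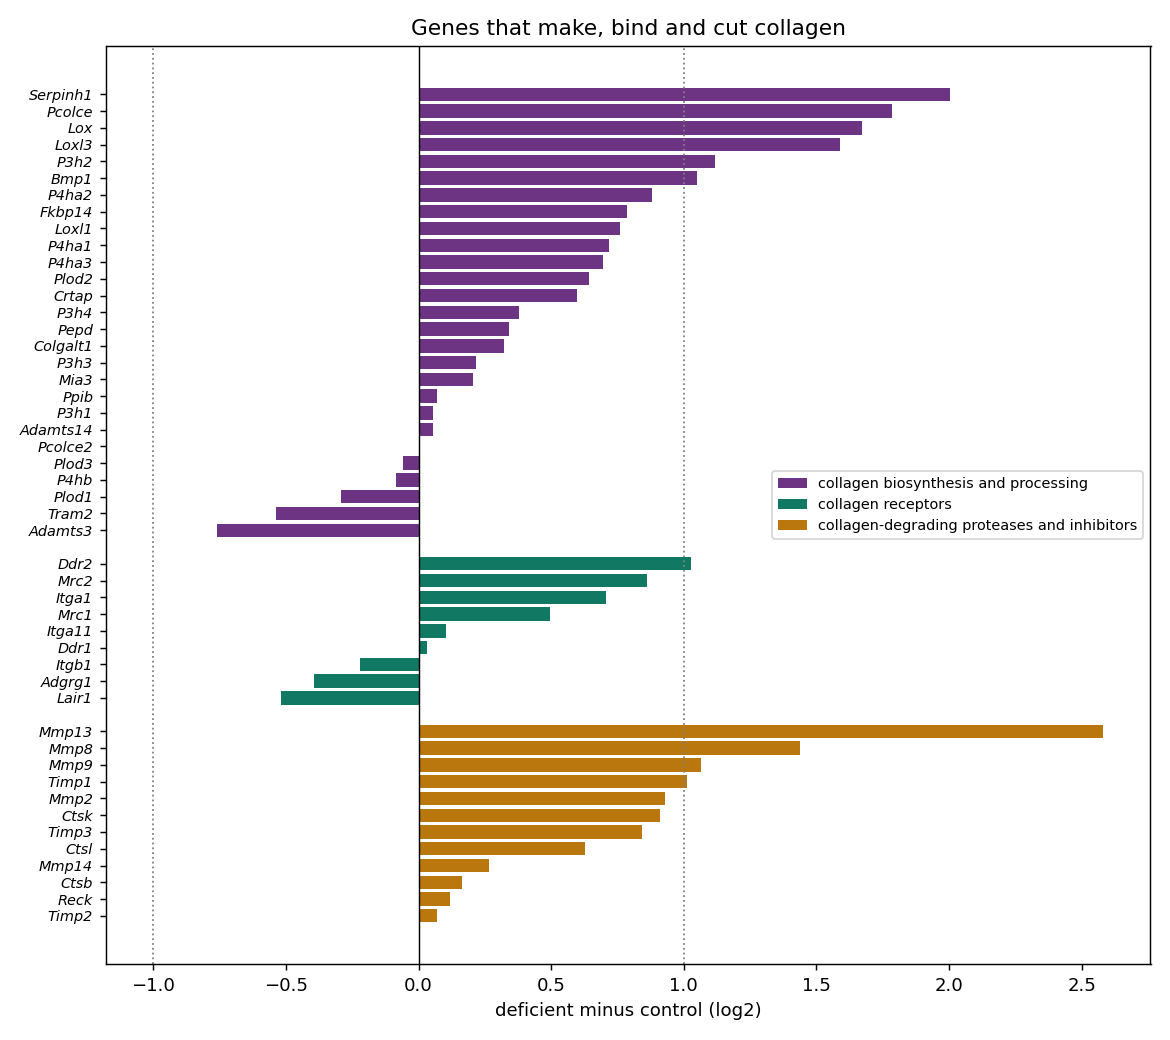
Difference (deficient minus control, log2, x axis) of each gene at the floor in 3 lists, 27 genes that make or process collagen, 9 receptors and 12 proteases or inhibitors, with dotted lines at 2-fold. Serpinh1 at 2.00 and Mmp13 at 2.58 head their lists, and Adamts3 at -0.76 is the lowest bar.

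Markers of fibroblasts and stromal cells were higher in the same array as these collagens. Of 20 fibroblast and stromal markers without collagens 19 were matched and 14 reached the floor, of which 11 were at least 1.5-fold higher and 0 lower, beside 7.54% and 8.81% over all genes at the floor. Of the 11, Pdgfra, Efemp1, Twist2 and Mgp had control values below the floor, and with the floor on the mean of both arrays 11 markers were left and 9 of them were at least 1.5-fold higher. Over the 14 markers the median difference was 1.37 and the mean value 9.30 in the array labelled deficient and 8.00 in the control array. Cxcl12 (2.87), Efemp1 (2.16) and Pdgfra (2.12) were highest and Mfap5 (-0.15), Thy1 (0.18) and Igfbp5 (0.39) lowest. Over the 19 matched markers without the floor, 14 were at least 1.5-fold higher and 0 lower, where 4.98% and 13.0% of all genes were. RMA gives no detection call, so no marker can be called absent. In bulk RNA more cells of a type and more RNA per cell cannot be told apart, and the part of stromal cells in the collagen differences was not tested.

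Of 8 cartilage and bone markers 6 were matched and 2 reached the floor, the bone phosphatase Alpl with a difference of 1.57 and the cartilage factor Sox9 with 0.17. Below the floor in both arrays, the bone genes Sp7 and Ibsp differed by 1.08 and 0.87, and the cartilage matrix genes Acan and Comp by 0.35 and -0.11. Smooth muscle and pericyte markers went both ways, and of 8, 5 reached the floor. Of the 5, 2 were at least 1.5-fold higher (Tagln at 0.79 and Acta2 at 0.62) and 1 lower (Cnn1 at -0.89). Over all genes at the floor 7.54% were higher and 8.81% lower. Cspg4 and Notch3 had -0.58 and -0.51. Of 7 endothelial markers 4 reached the floor, with differences of 2.00 for Emcn, 0.51 for Vwf, 0.44 for Cdh5 and -0.67 for Flt1. Emcn had 7.74 in the array labelled deficient and a control value of 5.74, below the floor. Flt1 had 6.62 in the array labelled deficient, below the floor, and a control value of 7.29. With the floor on the mean of both arrays 2 endothelial markers were left, Cdh5 and Vwf. Kdr, Tek and Tie1 stayed below the floor in both arrays, with differences of 0.06, 0.02 and 0.10. Of 4 epithelial markers 1 reached the floor, Krt8 at 0.13. Over 8 matched macrophage markers the median was 0.10, with Fcgr1 (0.78), Mertk (0.42) and Cd14 (0.24) highest and Lyz2 (-0.38), Itgam (-0.04) and Adgre1 (-0.00) lowest.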

How the data were processed

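The deposited table held 25917 rows, 1 per transcript cluster, and 2 columns. The authors deposited log2 values made with RMA, per the submitters' processing notes; the version, the settings and whether both columns came from 1 run stand in none of the sources used here. The log2 scale was read from the range of the values. Names came from GEO's platform annotation and Entrez IDs (GRCm38.p6 gene table, 0 symbols changed): 21624 rows had 1 symbol. The row with the highest mean was kept per gene. Differences are the array labelled beta-catenin deficient minus control. With 1 array per group no test, p-value or SE was computed. Python 3.11.15 with pandas 2.3.3, numpy 2.4.6 and statsmodels 0.14.6 was used, and the counting was tested on simulated data with 200 changed genes.

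Every member is described. For the other lists the 3 highest and 3 lowest genes at the floor were named, and some further genes were chosen after their values were seen. Members, classes and lists were chosen with earlier results of these data known. Listed genes with no row of a single symbol were not analysed here. Promoter sequences are RefSeq's.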

Additional observations from a re-analysis of the deposited data

How the results depend on the processing

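No paired analysis was possible because each group had 1 array and no test was made. Values are called moved here when they changed by more than 0.1 on the log2 scale. The counts of collagen genes at least 2-fold higher ranged from 6 to 8 and at least 1.5-fold higher from 7 to 12 under the 7 alternatives of floor, scaling and row choice. In each, 0 were lower at either size. Counts over all genes moved too. As deposited, 804 of 10657 genes at the floor were at least 1.5-fold higher and 939 lower. These were 1048 and 644 of 10624 with a loess curve on level removed, where the 12 arose. They were 441 and 481 of 5445 with the floor at the 75th percentile, where the 7 arose. Without a floor the medians were 0.0675 for all collagens, 0.25 for fibrillar, 0.031 for other and -0.0816 for basement membrane collagens, which turned sign. With the floor at the 75th percentile (9.07) they were 1.26 for all (7 genes), 1.39 for fibrillar (2) and 1.26 for other collagens (5), and no basement membrane collagen was left. With a loess curve on level removed they were 0.39 for all, 0.64 for fibrillar, 0.30 for basement membrane and 0.38 for other collagens; the median of all 19863 genes was 0.02 with loess, -0.0010 with quantile normalization and -0.15 as deposited, and centring, quantile normalization and loess put the share of higher among all 2-fold genes at 73.1%, 73.0% and 76.6% instead of 65.1%. Averaging rows of a gene gave 0.46 for other collagens. Means in place of medians were 0.49 for all, 0.0297 for basement membrane and 0.54 for other collagens. Leaving out 1 member put the fibrillar median between 0.39 and 0.61 and the other collagens between 0.16 and 0.46. No member at least 1.5-fold apart changed sign or came under 1.5-fold over these 7 alternatives (70 values), but this tests little. The alternatives of floor and row choice could not change the values of these members. Centring, quantile normalization and loess raised each of their differences. Col5a1, Col17a1 and Col28a1 passed 1.5-fold under some scalings. A further 6 members (Col5a3, Col8a2, Col16a1, Col19a1, Col24a1 and Col25a1) turned positive under centring, quantile normalization or loess. The causes were not tested. Dim values limit what can be said of the 18 members below the floor. RMA can compress differences there, which was not tested. Dim genes also ran low in these arrays, with a median difference of -0.16 over all genes with a mean from 6 to 7.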
